A study of Sus scrofa with 6 samples.

Results

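The dendritic cell genes CCL17, CCL22, FSCN1, IDO1, XCR1 and IRF8, were followed by name through lymph node, spleen and thymus. They are 6 of the 4122 genes that the tables list. The tissues came from pigs with a biallelic RAG2 knockout (RAG2 KO) and from wild-type (WT) littermates, all 3 months old. RAG2 is a subunit of the recombinase that assembles antigen receptor genes, and the series title describes the edit as the loss of a single amino acid. Each tissue and genotype is represented by 1 RNA-sequencing library, 6 in all, so that no difference has a replicate check and no p-value is given. How many animals stand behind a library, and whether 1 animal gave all tissues of a genotype, is not stated in the labels.

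Dendritic cells take up antigen and present it to T cells. On maturation they bundle actin into long processes, gain the chemokine receptor CCR7 and move to T-cell zones, and in the thymic medulla such mature cells present self-antigen to developing T cells. CCL17 and CCL22 are chemokines that both act on the receptor CCR4, which is carried by regulatory T cells, type 2 helper T cells and maturing thymocytes. FSCN1 (fascin) is the actin-bundling protein of the dendritic processes, and IDO1 is the interferon-inducible enzyme that starts the breakdown of tryptophan to kynurenine. These 4 are called mature migratory genes here. XCR1 is the receptor for the chemokine XCL1 and marks the cross-presenting dendritic cells (cDC1), which load MHC class I with antigen taken up from other cells. IRF8 is the transcription factor on which cDC1 development depends in mice, and it is also used by plasmacytoid dendritic cells, monocytes and B cells. FSCN1 and IDO1 are likewise found outside dendritic cells, among others in endothelium.

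In Sscrofa11.1, CCL22 (chromosome 6, 19296726 to 19301506) and CCL17 (chromosome 6, 19345929 to 19372972) lie next to each other, with CX3CL1 between them as the only other protein-coding gene. CX3CL1 was not analysed here. IRF8 lies elsewhere on the same chromosome (6, 3041617 to 3060685). FSCN1 is on chromosome 3 (4134173 to 4143275), IDO1 on chromosome 17 (9245283 to 9260140) and XCR1 on chromosome 13 (29150376 to 29233802).

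Levels are given as FPKM (fragments scaled to transcript length and library depth), beside the number of fragments assigned to the gene. The listed genes took 1922562 to 2541724 fragments per library. One fragment was worth about 1.71 FPKM for CCL17, 1.20 for IRF8, 0.659 for CCL22, 0.310 for IDO1, 0.130 for FSCN1 and 0.108 for XCR1 (medians over the libraries). A high FPKM of CCL17 or IRF8 therefore rests on fewer fragments than the same FPKM of FSCN1 or XCR1. A gene was taken as measured in a tissue at 1 FPKM or more in either library. It was called higher or lower at an absolute log2 ratio of at least 1, KO over WT, after adding 1 FPKM to each value. Folds compare fragment numbers after scaling. Their 95% intervals are exact (Clopper-Pearson) and cover only the error of counting. For a gene at 0 fragments in KO, the fold given is the lower end of its 95% interval. All 6 genes were measured in each tissue.

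The labels of thymus and lymph node were met by a marker of each, and no marker particular to spleen is given here. PTCRA, a chain of the receptor of immature thymocytes, stood at 611 FPKM in the KO thymus and 302 FPKM in the WT thymus, and at most at 0.566 FPKM in the other libraries. CCL21 was highest in lymph node, at 1754 FPKM in KO and 2438 FPKM in WT. RAG2 itself remained transcribed in the KO thymus (1072 FPKM, against 606 FPKM in WT). In the KO lymph node it had 5 fragments, against 0 in WT, and in the KO spleen 0, against 4 in WT, so its transcript does not check the genotype. Rows can also fail to hold a gene's reads: the macrophage receptor CD163 and SIRPA, a receptor of myeloid cells, were listed at 0 in all 6 libraries. B2M, which nucleated cells express, had only 3 to 30 fragments. A value of 0 is for that reason given as a listed value.

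**Figure D1:**
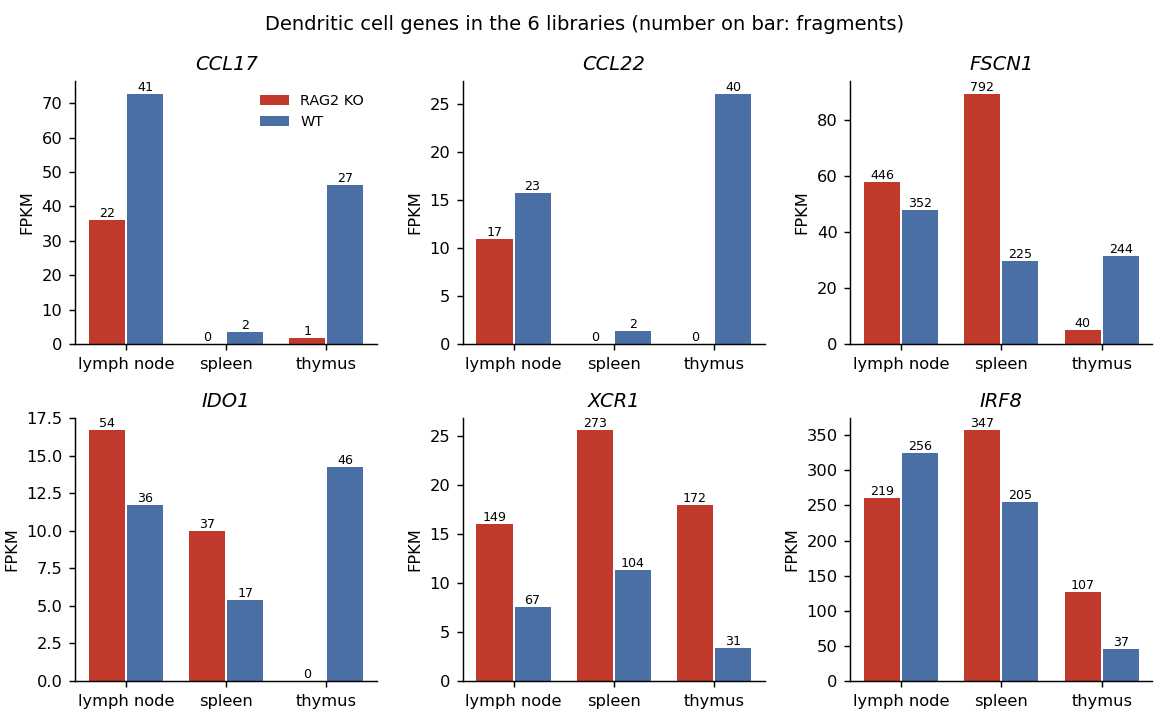
FPKM (vertical axis, from 0) of the 6 dendritic cell genes in the 3 tissues, RAG2 KO library in red and WT library in blue, 1 library per bar, with the fragment count printed on each bar. In thymus the 4 mature migratory genes stand between 0 and 5.06 FPKM in KO, against 14.2 to 46.1 FPKM in WT, while XCR1 and IRF8 are higher in KO.

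The thymus comparison separated the 2 kinds of gene. All 4 mature migratory genes were lower in the RAG2 KO thymus, and both XCR1 and IRF8 were higher. Among all 2908 genes measured there, 26.1% were called, 10.9% as lower and 15.2% as higher.

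The chemokines CCL17 and CCL22 were nearly unseen in the KO thymus. CCL17 was listed at 1.67 FPKM in the KO thymus (1 fragment), against 46.1 FPKM in the WT thymus (27 fragments), a 27.7-fold lower count with a wide interval (4.56 to 1132). CCL22 was listed at 0 FPKM in the KO thymus, against 26.1 FPKM in WT (40 fragments), at least 10.6-fold lower. Their log2 ratios were -4.14 and -4.76.

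IDO1, the tryptophan-degrading enzyme, was also listed at 0 in the KO thymus, against 14.2 FPKM (46 fragments) in the WT thymus. Its count was at least 12.3-fold lower, with a log2 ratio of -3.93. FSCN1 had the most fragments of the 4 and kept a measurable level. It stood at 5.06 FPKM in the KO thymus (40 fragments) and 31.6 FPKM in the WT thymus (244 fragments), 6.25-fold lower (4.46 to 8.96) with a log2 ratio of -2.43. Of the genes measured in thymus, 0.378% had a lower log2 ratio than CCL22, 0.653% than CCL17, 0.722% than IDO1 and 2.51% than FSCN1.

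XCR1, the cDC1 receptor, stood at 18.0 FPKM in the KO thymus (172 fragments) and 3.35 FPKM in the WT thymus (31 fragments), 5.42-fold higher (3.68 to 8.22). IRF8 stood at 127 FPKM in the KO thymus (107 fragments) and 45.0 FPKM in the WT thymus (37 fragments), 2.82-fold higher (1.93 to 4.22). Their log2 ratios were 2.12 and 1.48, above those of 96.8% and 92.1% of measured genes. In the WT thymus XCR1 and IRF8 had their lowest levels of the 6 libraries. These are whole-tissue values, in which fewer cells of a type and less RNA per cell cannot be told apart.

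In the KO spleen the mature migratory genes did not move as a block. FSCN1 was higher, at 89.6 FPKM in the KO spleen (792 fragments) against 29.8 FPKM in the WT spleen (225 fragments), 3.01-fold (2.60 to 3.51) with a log2 ratio of 1.56. IDO1 stood at 9.95 FPKM in the KO spleen (37 fragments) and 5.38 FPKM in the WT spleen (17 fragments), a ratio of 1.86 (1.02 to 3.53) that is short of a call at a log2 ratio of 0.78. CCL17 and CCL22 were close to unseen in spleen in either genotype, each with 0 fragments in KO and 2 in WT. Their log2 ratios of -2.16 and -1.22 pass the size threshold on these 2 fragments, with intervals that include equal levels, and no fold is given.

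XCR1 was higher in the KO spleen as well, at 25.5 FPKM (273 fragments) against 11.3 FPKM in the WT spleen (104 fragments), 2.25-fold (1.79 to 2.85) with a log2 ratio of 1.105. With 5 FPKM added in place of 1 its log2 ratio was 0.90, under the call. IRF8 stood at 357 FPKM in the KO spleen (347 fragments) and 255 FPKM in the WT spleen (205 fragments), a ratio of 1.45 (1.22 to 1.73) and a log2 ratio of 0.49. Of the 6 genes, 2 were thus called higher and 2 lower in spleen, where 18.9% of the 2849 measured genes were called, 8.88% as higher and 10% as lower.

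In lymph node, which drains tissue and receives migrating dendritic cells, none of the 6 genes was called, where 25.6% of the 2910 measured genes were (15.3% higher and 10.3% lower). The chemokine CCL17 and the receptor XCR1 lay just short of the threshold in opposite directions. CCL17 stood at 36.2 FPKM in the KO lymph node (22 fragments) and 72.8 FPKM in the WT lymph node (41 fragments), 1.95-fold lower (1.13 to 3.43) with a log2 ratio of -0.99. XCR1 stood at 16.04 FPKM in the KO lymph node (149 fragments) and 7.54 FPKM in the WT lymph node (67 fragments), 2.13-fold higher (1.58 to 2.88). Its log2 ratio of 0.9965 became a call of 1.08 with 0.1 FPKM added and of 1.06 to 1.07 on scaled counts, and CCL17 became one of -1.01 with 0.1 FPKM added.

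The remaining members differed less in lymph node. CCL22 stood at 10.96 FPKM in KO (17 fragments) and 15.7 FPKM in WT (23 fragments), a ratio of 0.707 (0.355 to 1.38). FSCN1 stood at 57.9 FPKM in KO and 47.9 FPKM in WT, a ratio of 1.21 (1.05 to 1.40). IDO1 stood at 16.7 FPKM in KO and 11.7 FPKM in WT, a ratio of 1.43 (0.924 to 2.25). IRF8 stood at 260 FPKM in KO and 325 FPKM in WT, a ratio of 0.818 (0.680 to 0.984). The intervals of CCL22 and IDO1 include equal levels.

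**Figure D2:**
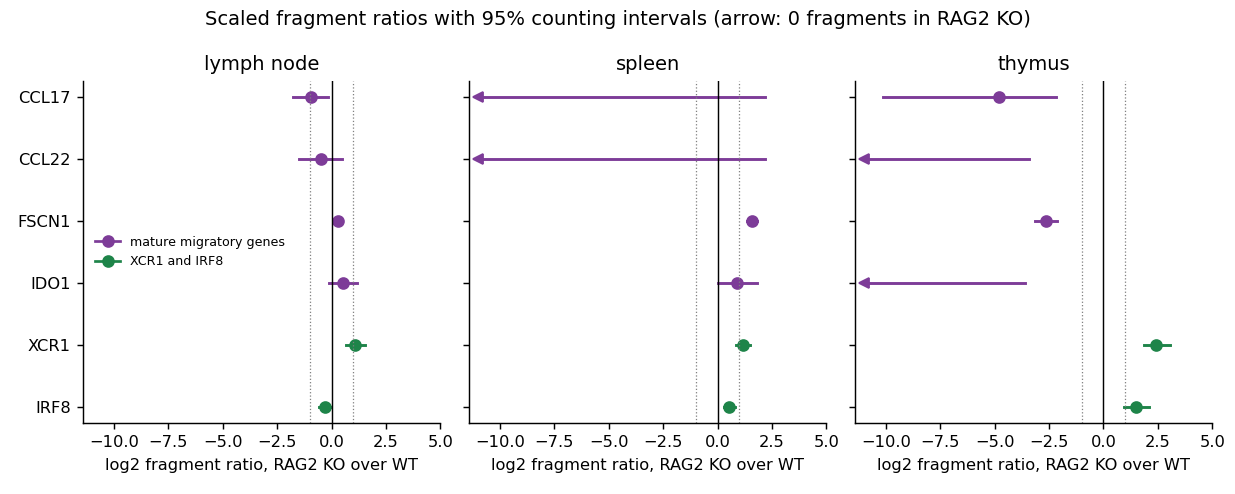
Log2 ratio of scaled fragment counts, RAG2 KO over WT (horizontal axis), for each gene (rows) in lymph node, spleen and thymus, with 95% counting intervals as lines and dotted lines at a log2 ratio of 1 in either direction. Arrows mark genes with 0 fragments in KO, whose interval has no lower end. XCR1 lies above equal levels in each tissue, and the mature migratory genes lie far below them in thymus, where FSCN1 is 6.25-fold lower.

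XCR1 was the only one of the 6 whose counting interval excluded equal levels in the same direction in each tissue, with KO over WT ratios of 2.13 in lymph node, 2.25 in spleen and 5.42 in thymus. A ratio of 2 genes within a library does not depend on how that library was scaled, so each mature migratory gene was also set against XCR1 and against IRF8, 8 pairs per tissue. In thymus, FSCN1 had 0.233 fragments per XCR1 fragment in KO and 7.87 in WT, 33.5-fold lower (19.8 to 58.2). Against IRF8 it had 0.374 in KO and 6.59 in WT, 17.5-fold lower (10.4 to 30.1). CCL17 against XCR1 was 145-fold lower on 1 KO fragment (22.4 to 6166). For CCL22 and IDO1, with 0 fragments in the KO thymus, the KO over WT ratio against XCR1 had upper ends of 0.0191 and 0.0165. All 8 thymus intervals excluded an equal ratio. They rest on the same fragment counts as the single-gene ratios above and are not 8 separate comparisons.

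Outside the thymus the same pairs gave smaller values. In lymph node, CCL17 against XCR1 was 4.12-fold lower in KO (2.205 to 7.88), CCL22 2.99-fold lower (1.43 to 6.40) and FSCN1 1.75-fold lower (1.26 to 2.46), while IDO1 against XCR1 gave 0.675 (0.393 to 1.17). Against IRF8 the lymph node values of FSCN1 and IDO1 ran the other way, at 1.48 (1.17 to 1.87) and 1.75 (1.08 to 2.86). CCL17 and CCL22 against IRF8 gave 0.628 (0.345 to 1.12) and 0.864 (0.422 to 1.74) there, both spanning an equal ratio. In spleen, FSCN1 gave 1.34 (1.01 to 1.77) against XCR1 and 2.08 (1.64 to 2.63) against IRF8. IDO1 in spleen gave 0.83 (0.433 to 1.64) against XCR1 and 1.29 (0.685 to 2.50) against IRF8, both spanning an equal ratio.

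**Figure D3:**
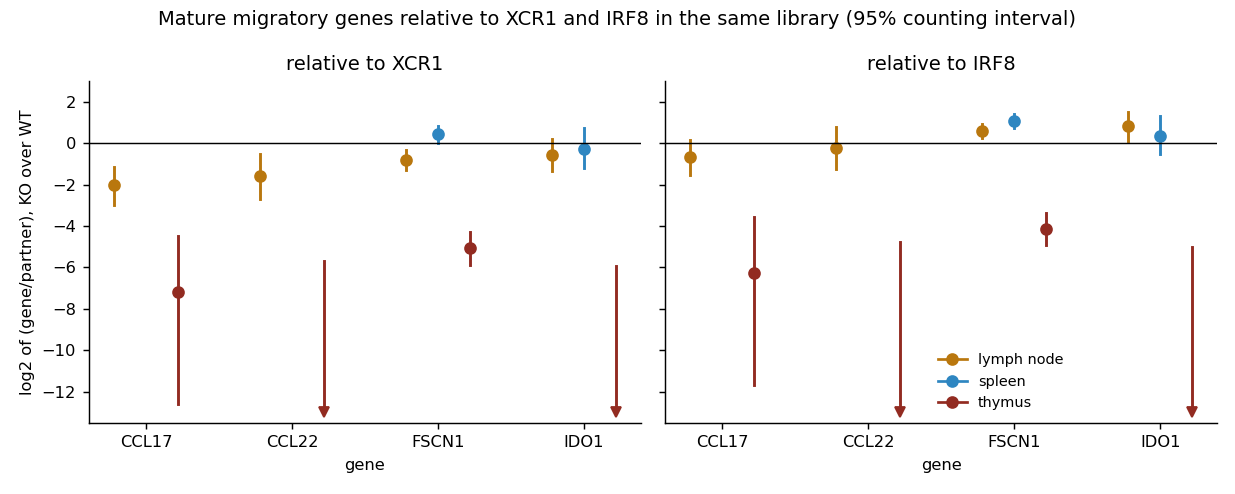
Log2 of the KO over WT ratio (vertical axis) of each mature migratory gene relative to XCR1 (left) and to IRF8 (right) within the same library, by tissue, with 95% counting intervals. Arrows mark 0 fragments in KO, and CCL17 and CCL22 in spleen, with 2 fragments in all, are not drawn. The thymus values lie below those of lymph node and spleen for each gene drawn, with FSCN1 over XCR1 33.5-fold lower in KO.

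Across tissues the 6 genes had different orders of level, given as a description because the FPKM tables were made separately for each tissue. FSCN1 was highest in the KO spleen, then in the KO and WT lymph nodes, and lowest in the KO thymus. Its levels in the WT thymus and WT spleen, which lay between, did not differ beyond counting error (ratio 1.06, 0.881 to 1.28). CCL17 was highest in the WT lymph node, then in the WT thymus and the KO lymph node, with neighbours within counting error, and the step down to the spleens and the KO thymus was larger (10.4-fold between the KO lymph node and the WT spleen, 2.55 to 91.2). CCL22 was highest in the WT thymus, followed by the WT and KO lymph nodes, again within counting error of their neighbours. IDO1 lay between 9.95 and 16.7 FPKM in 4 libraries whose neighbours could not be told apart, at 5.38 FPKM in the WT spleen, and at 0 in the KO thymus. XCR1 was higher in each KO library (16.04 to 25.5 FPKM) than in each WT library (3.35 to 11.3 FPKM). IRF8 was between 255 and 357 FPKM in the 4 spleen and lymph node libraries and lower in the thymuses.

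The likeness of profiles was measured as the root mean square difference of centred log2(FPKM + 1) values over the 6 libraries, among genes that reached 5 FPKM in a library. CCL17 was closest to its neighbour CCL22 (0.68), then to IRF4 (0.78), which never had more than 2 fragments, and to STXBP6 (0.93). CCL22 was closest to STXBP6 (0.62), a syntaxin-binding protein that stood at 5.01 FPKM in the KO thymus and 44.3 FPKM in the WT thymus, then to CCL17 and to the macrophage elastase MMP12 (0.75). FSCN1 was closest to IFNG (0.48), the interferon gamma gene on 0 to 12 fragments, and PHLDA2 (0.53) was also among its nearest profiles. IDO1 was closest to the neurokinin gene TAC3 (0.53), to FSCN1 (0.62) and to LOC100519468 (0.80).

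The closest profiles of the other pair were different genes. Among the nearest profiles of XCR1 were TREM1 (0.28), an activating receptor of myeloid cells, and the transcription factor FOXO3 (0.30). IRF8 was closest to LY96 (0.26), the TLR4 co-receptor, to the inflammasome protease CASP1 (0.29) and to complement C2 (0.30). XCR1 and IRF8 differed from each other by 0.78, CCL17 from XCR1 by 3.03 and FSCN1 from CCL17 by 2.44. The mature migratory genes were therefore of 2 shapes, the chemokines being near 0 in spleen and FSCN1 and IDO1 not.

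Counts of called genes in the lists below are to be read beside the shares over all measured genes. These were 15.2% higher and 10.9% lower in thymus, and 8.88% and 10% in spleen. In lymph node they were 15.3% and 10.3%. Other genes of mature dendritic cells were taken from a list of 24, of which 16 are in the tables. In thymus, 11 of these besides the members were measured, of which 3 were lower in KO and 2 higher, with a median log2 ratio of -0.43, beside -4.72e-05 over all measured genes. CCR7, the homing receptor of mature dendritic cells that thymocytes and T cells also carry, had 10 fragments in the KO thymus and 327 in the WT thymus, 33.5-fold lower (18.0 to 70.5). The CCR7 ligand CCL19 was 7.24-fold lower (4.20 to 13.4), and IL12B, a subunit of interleukin 12, had 1 fragment in KO and 21 in WT. The costimulatory ligand CD86 was 3.05-fold higher in the KO thymus (2.02 to 4.74) and the adhesion molecule ICAM1 (listed as ICAM-1) 2.48-fold higher (1.996 to 3.10). CD40 and CD80 gave log2 ratios of -0.80 and 0.31. In spleen, 3 of 11 were higher, CCL19 (log2 ratio 4.26), CD274 (1.72) and the cytokine IL15 (1.13), and 3 were lower, CCR7 (-1.13) and, on 9 or fewer fragments, IL12B and CD70. In lymph node, 2 of 10 were higher, IL15 (1.80) and IL12B (1.31), and 2 lower, CCR7 (-1.59) and CD40 (-1.54). CD40 is also on the B-cell list, and CCL19 is also on the thymic medulla list.

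Of 16 genes listed for cross-presenting dendritic cells 6 are in the tables, among them XCR1 and IRF8. The other 4 had median log2 ratios of -1.23 in lymph node, -0.69 in spleen and -0.13 in thymus. Of these, 1 was higher and 1 lower in thymus, 0 and 2 in spleen, and 1 and 2 in lymph node. The double-stranded RNA sensor TLR3 was higher in KO in thymus (4.61-fold, 3.57 to 6.02) and in lymph node (2.61-fold, 2.16 to 3.17), and stood at 23.8 FPKM in the KO spleen and 24.8 FPKM in the WT spleen. ID2, a regulator needed for cDC1 in mice, was called in none of the tissues (log2 ratios of 0.36 in lymph node, 0.65 in spleen and -0.0565 in thymus). The endocytic receptor LY75, which thymic epithelium also carries, was lower in KO in lymph node (-2.82) and spleen (-1.54), and stood at -0.19 in thymus. CD8A, on cDC1 in mice and also a T-cell coreceptor, was lower in each tissue, and which cells carried it was not tested. Of 22 listed genes for antigen processing, 13 were measured in thymus, 1 higher (CTSL, 2.83-fold) and 1 lower (HSP90AA1, -1.21). Over all genes measured in thymus, 26.1% were called. In spleen 3 of 14 were higher, PSME2 (1.20), B2M (1.38) and PSMB8. B2M, whose low row is noted above, had 30 fragments in KO and 9 in WT, and PSMB8 had 3 in KO. MHC class II genes had a median log2 ratio of 0.52 in thymus, 0.02 in spleen and -0.73 in lymph node, with SLA-DOB lower in spleen and lymph node.

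Partners of the 6 genes differed too. XCL1, the ligand of XCR1, had 11 fragments in the KO thymus and 42 in the WT thymus, 3.91-fold lower (1.98 to 8.42), the reverse of its receptor. In spleen it had 57 in KO and 30 in WT, and in lymph node 35 in KO and 24 in WT, short of a call in both. CD40LG, the T-cell ligand that drives dendritic cell maturation through CD40, had 0 fragments in the KO thymus and 37 in WT. It was at least 9.77-fold lower there and at least 4.50-fold lower in the KO spleen. In the KO lymph node it was 11.2-fold lower (4.85 to 31.5). The regulatory T-cell genes FOXP3 and CTLA4 were called lower in thymus and lymph node on few fragments. FOXP3 had 1 fragment in the KO thymus and 8 in WT, and 0 in the KO lymph node and 26 in WT. CTLA4 had 0 in the KO thymus and 6 in WT, and 0 in the KO lymph node and 18 in WT. In spleen FOXP3 passed the size threshold on 1 fragment in KO and 6 in WT, with an interval that includes equal levels. IL10, on the same list, went the other way in thymus. It was called higher there on 10 fragments in KO and 3 in WT, with an interval that includes equal levels (0.838 to 18.4). In lymph node and spleen IL10 was short of a call (log2 ratios of 0.25 and 0.50). IL2RA, also listed, stood at 0 in each library. CCR4 was not analysed here.

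IDO1 and IRF8 belong to the interferon gamma axis, whose 17 listed genes in the tables were compared as a group. In spleen 9 of 15 measured members were higher and none lower (median 1.09), among them CXCL9 (12.8-fold, 9.49 to 17.8), CXCL10 (6.24-fold, 5.54 to 7.06) and GBP1 (3.25-fold, 3.11 to 3.40). IDO1 and IRF8 were not among the 9. Of the 9, PSMB8 (3 fragments in KO and 0 in WT) and SOCS1 (15 and 5) have intervals that include equal levels. JAK1 and IFNG had 2 WT fragments each. Over all genes measured in spleen, 8.88% were called higher. In thymus 3 of 14 were higher and 2 lower (median 0.22), 1 of each being IRF8 and IDO1. CXCL11, higher on 7 fragments in KO and 1 in WT, and IFNG, lower on 0 and 2, have intervals that include equal levels. CXCL9, CXCL10 and IRF1 in thymus gave log2 ratios of -0.32, 0.11 and 0.20 while IDO1 was listed at 0. JAK2 was another of the 3 by FPKM (575 in KO, 62.6 in WT), but its fragments, 685 in KO and 615 in WT, do not bear out the FPKM difference. IFNG itself had 0 fragments in the KO thymus and 2 in WT, 12 in the KO spleen and 2 in WT, and 4 in both lymph nodes.

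**Figure D4:**
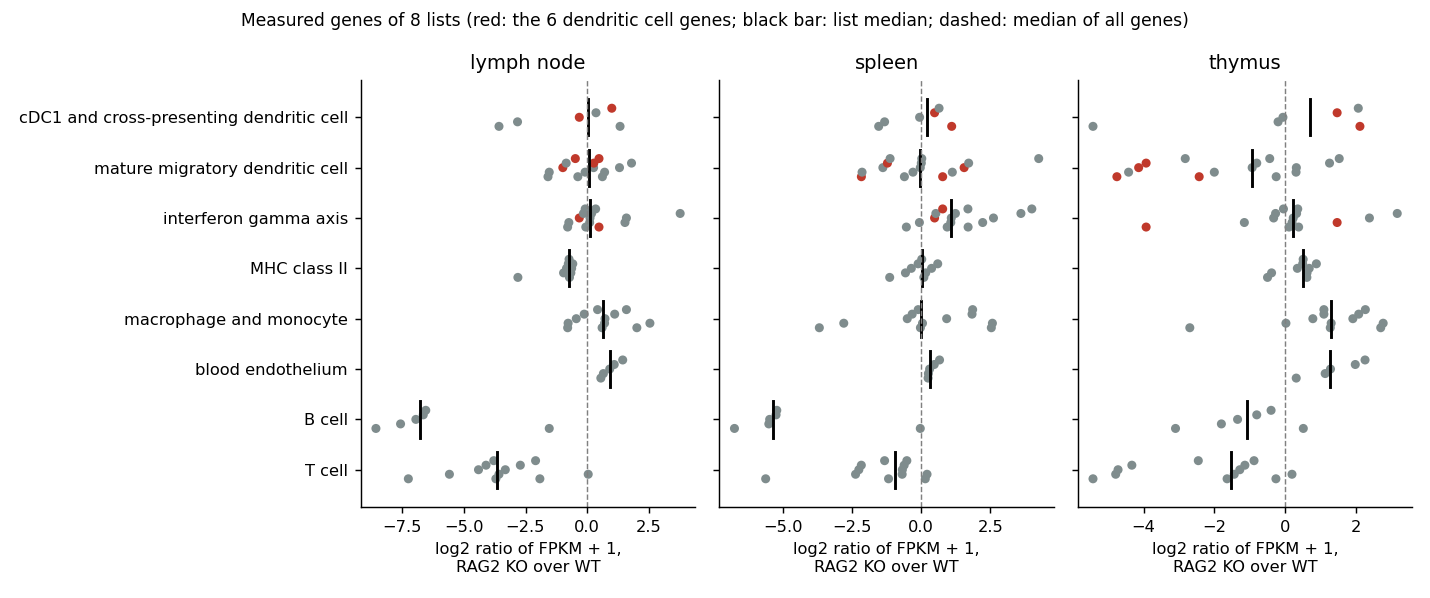
Log2 ratio of FPKM + 1, RAG2 KO over WT (horizontal axis, scaled separately in each panel), of measured genes of 8 lists in the 3 tissues, 1 point per gene, the 6 dendritic cell genes in red, list medians as black bars and the median of all measured genes as a dashed line. In thymus the 4 red points of the mature list lie from -4.76 to -2.43 and macrophage genes have a median of 1.30.

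Other cell types that can express these genes moved in the same libraries. In the KO thymus 9 of 12 measured macrophage and monocyte genes were higher and 1 lower (median 1.30). Over all genes measured in thymus, 15.2% were called higher and 10.9% lower. Their summed level was 3333 FPKM in KO and 1161 FPKM in WT, led by the complement genes C1QC and C1QA. Of 5 blood endothelial genes 4 were higher, with a summed level of 257 FPKM in the KO thymus and 117 FPKM in WT, while T-cell genes were lower in 9 of 12 cases (4233 FPKM in KO and 10821 FPKM in WT). Fat and blood genes were higher in the KO thymus in 4 of 5 measured cases (median 2.39), with a summed level of 6493 FPKM in KO and 1369 FPKM in WT. The haemoglobin gene HBB was 5.24-fold higher there (4.88 to 5.64), PLIN1, which coats lipid droplets, 7.41-fold, and the fat-cell hormone gene ADIPOQ 10.6-fold (8.46 to 13.5). The 4 mature migratory genes and most T-cell genes were thus lower in this KO thymus. XCR1, IRF8 and most macrophage, endothelial, fat and blood genes were higher there. The part of these shifts in the thymus values of the 6 genes was not tested.

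B cells carry IRF8 as well. All 6 listed B-cell genes in the tables were lower in the KO lymph node (summed level 67.4 FPKM in KO and 1770 FPKM in WT), and 5 of 6 in the KO spleen (106 FPKM in KO and 642 FPKM in WT). CD40, also on the mature dendritic cell list, gave 62.9 FPKM of the KO lymph node sum and 99.0 FPKM of the KO spleen sum. In WT it gave 184 FPKM in lymph node and 101 FPKM in spleen. MS4A1 (CD20) had 6 fragments in the KO lymph node and 2 in the KO spleen, against 2296 and 896 in WT. IRF8 stood in the same libraries at 260 FPKM in the KO lymph node and 357 FPKM in the KO spleen. Fat and blood genes were also higher in the KO lymph node, all 6 of them, led by ADIPOQ (log2 ratio 8.05), while in the KO spleen 2 of 4 measured were lower. Their part in the lymph node values was not tested.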

How the data were processed

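RNA of 3 tissues was sequenced in 6 libraries from a stranded total RNA kit, per the labels' protocols. FastQC 0.11.9, Trimmomatic 0.39, STAR 2.7.9a, Cufflinks 2.2.1 and the build Sscrofa11.1 are named per the submitters' processing notes. Which annotation was used, whether counting used strand and how shared fragments were handled is not given in the sources used here. FPKM values were deposited by the authors, 1 table per tissue. The deposited tables of estimated counts appear to hold fragments multiplied by 1 factor per library, which is inferred from the values and not stated in the labels. The most common non-zero value of each library was taken as 1 fragment, which made 97.9 to 99.4% of values whole (tolerance 0.02), and the rest were rounded. All fragment numbers and intervals rest on this inference. Coordinates come from RefSeq for Sscrofa11.1.

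No test across genes was made, as each group holds 1 library. Ratios of 2 genes were compared by the exact conditional odds ratio. The members and the 16 gene lists were chosen with earlier results of these data known. Genes named are the members, up to 3 called genes with the largest log2 ratio per list and tissue, fixed partner genes, and the 3 nearest profiles per member, some of which are not reported here. Some named by the rule are given only within counts, and other list genes were named after their values were seen. Older symbols were searched (SIGLEC-1, ICAM-1 and PCD1E). The calling step was run on counts simulated with known ratios, with counting error alone. Alternatives were pseudocounts of 0.1 and 5, depth-scaled counts (totals, edgeR 4.0.16 TMM factors, DESeq2 1.42.0 size factors), centring, other minima, calls limited to genes whose counting interval excludes equal levels, and a threshold of 2. Chosen after seeing the data were a minimum of 10 fragments and lists without the 6 members. The work ran on R 4.3.3 and Python 3.11.15 with scipy 1.17.1, pandas 2.3.3, numpy 2.4.6 and matplotlib 3.10.9.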

Additional observations from a re-analysis of the deposited data

Results flagged for a closer look

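Members with KO over WT log2 ratios of opposite sign in a pair of tissues, each with a counting interval that excludes equal levels, are given here. The differences between tissues were not tested, and each tissue holds 1 library per genotype. FSCN1 was lower in the KO thymus (-2.43) and higher in the KO spleen (1.56), and stood at 0.27 in lymph node. IDO1 was lower in the KO thymus (-3.93) and stood at 0.78 in spleen. IRF8 stood at -0.32 in lymph node, 0.49 in spleen and 1.48 in thymus.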

How the results depend on the processing

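Under 6 alternatives of scaling and pseudocount, the 4 mature migratory genes kept log2 ratios of -1.86 or lower in thymus, XCR1 and IRF8 kept 1.40 or higher there, and FSCN1 kept 1.44 or higher in spleen. With a pseudocount of 5, FSCN1 and XCR1 in thymus were -1.86 and 1.46, and the cause is the added value itself. Calls were gained or lost for CCL17 and XCR1 in lymph node and XCR1 in spleen, as given above. In spleen CCL17 was -0.76 and CCL22 -0.34 with a pseudocount of 5, and both lay between -0.97 and -0.96 on scaled counts. Scaling counts to their total moved the median of measured genes in thymus by 0.116. All 16 ratios between members that could be set against FPKM ratios lay within their counting intervals. This was close to fixed in advance, because the FPKM of a gene is nearly a constant multiple of its fragments. It is therefore no separate check of those ratios.

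Genes called higher and lower were 446 and 299 in lymph node, in spleen 253 and 286, and in thymus 441 and 317. A threshold of 2 left 163 higher and 112 lower in lymph node, 79 and 76 in spleen, and 110 and 105 in thymus. A pseudocount of 5 left 166 higher and 160 lower genes in spleen, and in thymus 272 and 183. The labels carry no replicate numbers to pair libraries by, and a fit of genotype over the 3 tissues with tissue as a block was not run. Depth limits CCL17 and CCL22 in spleen, where 2 fragments cannot show a difference.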

Other observations

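Genes of other dendritic cell types and of the pathway below IDO1 gave values that fit no comparison above. Over all measured genes, 15.2% were called higher and 10.9% lower in thymus, and 15.3% and 10.3% in lymph node. Of the plasmacytoid list, which shares IRF8, 4 of 7 measured genes were higher in the KO thymus and 1 lower (median 1.01). The nucleic acid sensors TLR7 (2.51-fold, 2.26 to 2.80) and TLR9 (2.57-fold, 1.71 to 3.97) were among them. The others were IRF8 itself and PTCRA, which immature thymocytes express and whose log2 ratio is the median given. IRF7 in thymus gave a ratio of 0.713 (0.510 to 0.993), short of a call. In the KO spleen TLR7 was 2.33-fold lower (2.06 to 2.65) and IRF7, the interferon regulator of these cells, 3.48-fold higher (2.88 to 4.22). In the KO lymph node BCL11A, which B cells also express, was 7.73-fold lower (5.19 to 11.9).

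Of the list for other conventional dendritic cells, 4 of 5 measured genes were lower in the KO lymph node, of which IRF4 rests on 1 fragment in KO and 2 in WT. The lectin CD209 was 3.65-fold lower there (3.42 to 3.90), at 586 FPKM in KO and 2158 FPKM in WT, and the lipid-antigen presenter CD1.1 was 3.52-fold lower (2.54 to 4.95). In the KO thymus 3 of 5 were lower. CD1E (listed as PCD1E), which thymocytes also express, had 433 fragments in KO and 1764 in WT, 4.17-fold lower, and CD209 was 2.08-fold lower (1.37 to 3.21). The other was IRF4, on 0 fragments in KO and 2 in WT. KMO, the kynurenine hydroxylase downstream of IDO1, stood at 30.9 FPKM in the KO thymus and 15.4 FPKM in the WT thymus, a ratio of 2.01 (1.49 to 2.73), where IDO1 was listed at 0. The aryl hydrocarbon receptor AHR, which kynurenine activates, was called in none of the tissues. Of the list for the thymic medulla, 4 of 11 measured genes were higher in the KO thymus and 4 lower. The list also holds genes that are not particular to the medulla, such as CCL25 and CTSL. Its counts therefore do not describe the medulla alone. CCL21, higher on 9 fragments in KO and 4 in WT, and CLDN3, lower on 0 and 5, have intervals that include equal levels. Among the higher genes, CLDN4 was 2.93-fold higher (1.63 to 5.53) and LTBR 3.36-fold higher (2.63 to 4.32). The epithelial marker EPCAM stood at 242 FPKM in KO and 196 FPKM in WT. CCL25, a chemokine of thymic epithelium, was 3.43-fold lower (3.04 to 3.88).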
